A study of Mus musculus with 4 samples.

Results

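Serum response factor (SRF), its coactivator myocardin and the factors that share, cooperate with or compete for their sites were examined as a set of 10 genes in a map of PRDM6 binding in mouse outflow tract smooth muscle cells (SMCs). The members were Srf, Myocd, Mef2a, Mef2c, Mef2d, Klf4, Klf5, Elk3, Elk4 and Fhl2, and their peaks were the rows of the deposited peak annotation that carried one of these symbols. The authors' annotation gave these genes 44 of the 13977 peaks in the list. Peaks were assigned to 8 of the 10 members, against 20.1% of the 21755 protein-coding genes on the chromosomes with peaks, and Srf and Elk4 had none.

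SRF is a MADS box protein that binds the CArG box, a short A/T-rich element found near many contractile and cytoskeletal genes. Myocardin is brought to CArG boxes by SRF, where it drives the contractile program of SMCs, while the ternary complex factors Elk3 and Elk4 contact SRF and a neighbouring ETS site and are known to compete with myocardin for SRF. The MEF2 proteins are MADS box factors with a related A/T-rich site, Klf4 and Klf5 are zinc finger factors linked to the change of SMCs away from the contractile state, and Fhl2 is a LIM-only cofactor that binds SRF and is itself an SRF target. The study asked where PRDM6, a PR domain zinc finger protein of SMCs, is bound, and it connected PRDM6 with the myocardin-related factor MRTF-A. It also reported PRDM6 binding in or close to Myocd, and altered Myocd expression in the ductus arteriosus after Prdm6 depletion.

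The cells were primary SMCs of the aortic arch and ductus arteriosus, taken from Prdm6 fl/fl mouse embryos late in gestation, and all 4 libraries came from cells that overexpressed FLAG-tagged PRDM6 from a lentivirus. The PRDM6 ChIP group had 2 libraries precipitated with an anti-FLAG antibody, and the Input group had 2 libraries of chromatin without precipitation. The peaks were therefore those of a tagged protein expressed in excess, in a set of cells with no library lacking the transgene among those analysed here. The 2 immunoprecipitations are described as coming from 1 sample in one place and as independent in another, so the agreement between them may be technical only.

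The files held no expression values, so the SMC identity of the cells could not be checked against marker genes, and they held no value for the Input group, which entered only through the peak calls. Each peak carried the −log10 p-value that MACS2 gave it in either immunoprecipitation, named only by its place in the list as the first-listed or second-listed replicate, and a global irreproducible discovery rate (IDR), where a low value marks a peak that ranked high in both. Total read numbers were not in the files. For many peaks the p-value equalled a step of a Poisson distribution over the genome-wide background, 2.61 fragments in the first-listed replicate and 2.39 in the other, and the height of the peak in fragments could be read from it. This gave a height for 28 of the 44 member peaks in either replicate, with medians of 15 and 14 fragments where all peaks had 14 and 13.

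The 44 peaks were unequally spread over the members. Klf4 held 14 peaks, Fhl2 8, Mef2c and Klf5 7 each and Elk3 5, while Myocd, Mef2a and Mef2d had 1 peak each. Among the 5246 genes with a peak, 1.03% had as many peaks as Klf4 or more, 5.76% as many as Fhl2, 8.1% as many as Mef2c and Klf5, and 15% as many as Elk3. A single peak, as on Myocd, Mef2a and Mef2d, was the most common count and was found for 2443 genes.

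**Figure D1:**
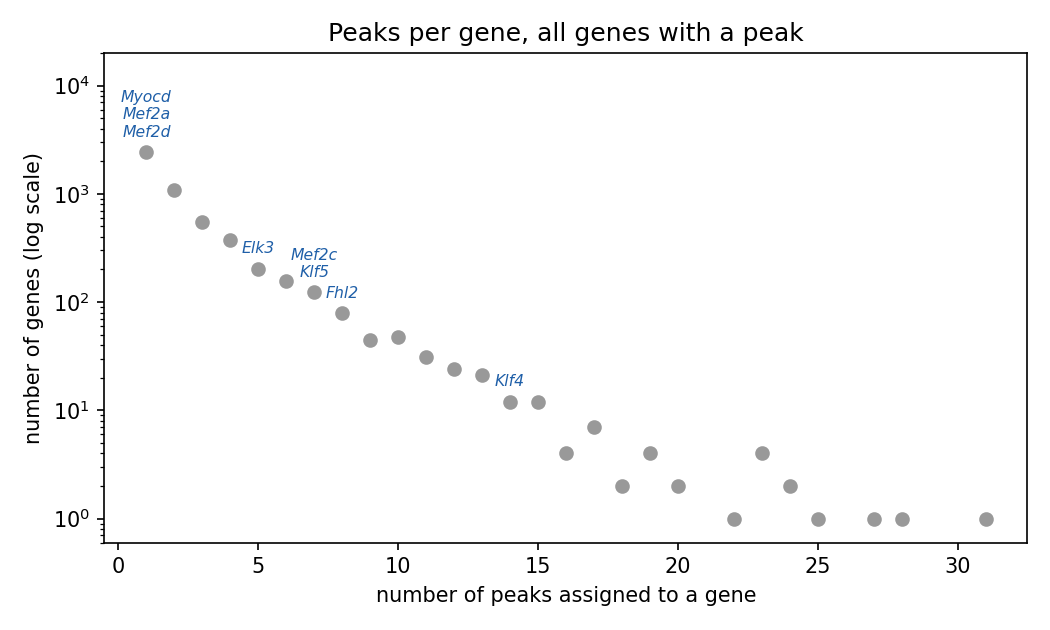
Number of genes (vertical axis, log scale) for each number of assigned peaks (horizontal axis), over the 5246 genes with a peak; each grey point is a count of genes, and member names stand above the point of their own peak number. Klf4, with 14 peaks, lies in the tail, and Myocd, Mef2a and Mef2d lie among the 2443 genes with 1 peak.

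The members differed widely in the amount of sequence around them. The stretch in which a member's transcription start site (TSS) was the nearest coding one measured 1255 kb for Mef2c, 695 kb for Klf4, 525 kb for Klf5 and 338 kb for Myocd, but 41.6 kb for Srf and 48.8 kb for Elk4, with a median of 46.5 kb over coding genes. Per 100 kb of that stretch, Fhl2 had 4.21 peaks, Elk3 3.14, Klf4 2.01, Myocd 1.77, Klf5 1.52, Mef2d 1.34, Mef2c 1.12 and Mef2a 0.947, counting every peak in it whatever gene it was assigned to, and the whole list had 0.531. Srf and Elk4 had 0. By this measure Fhl2 and Elk3 came before Klf4, which came next. The part of this spacing in the peak counts was not tested.

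In strength the member peaks lay close to the rest of the list. Their median −log10 p was 7.01 in the first-listed and 7.0 in the second-listed replicate, where all peaks had 6.92 and 6.61. For the matched peak, which takes the smaller of both values, the medians were 5.32 for the members and 5.53 for all peaks, and the middle 50% of the members ran from 4.37 to 7.49. The first-listed replicate was the higher one in 22 member peaks and the second-listed in the other 22. The lowest IDR score in the list, which stands for a global IDR of 0.759, was given to 22 of the 44 peaks (50%, 95% Wilson interval 35.8 to 64.2), against 41.4% of all peaks. Intervals here cover counting error only, and peaks at 1 gene share a locus and are not independent of each other.

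A global IDR of at most 0.05 was reached by 2 of the 44 peaks (4.55%, interval 1.26 to 15.1), against 3.33% of all peaks. They lay at Klf5 and at Mef2c, so 2 of the 10 members had such a peak, against 1.64% of protein-coding genes. The other 6 members with a peak, Myocd, Mef2a, Mef2d, Klf4, Elk3 and Fhl2, had none.

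**Figure D2:**
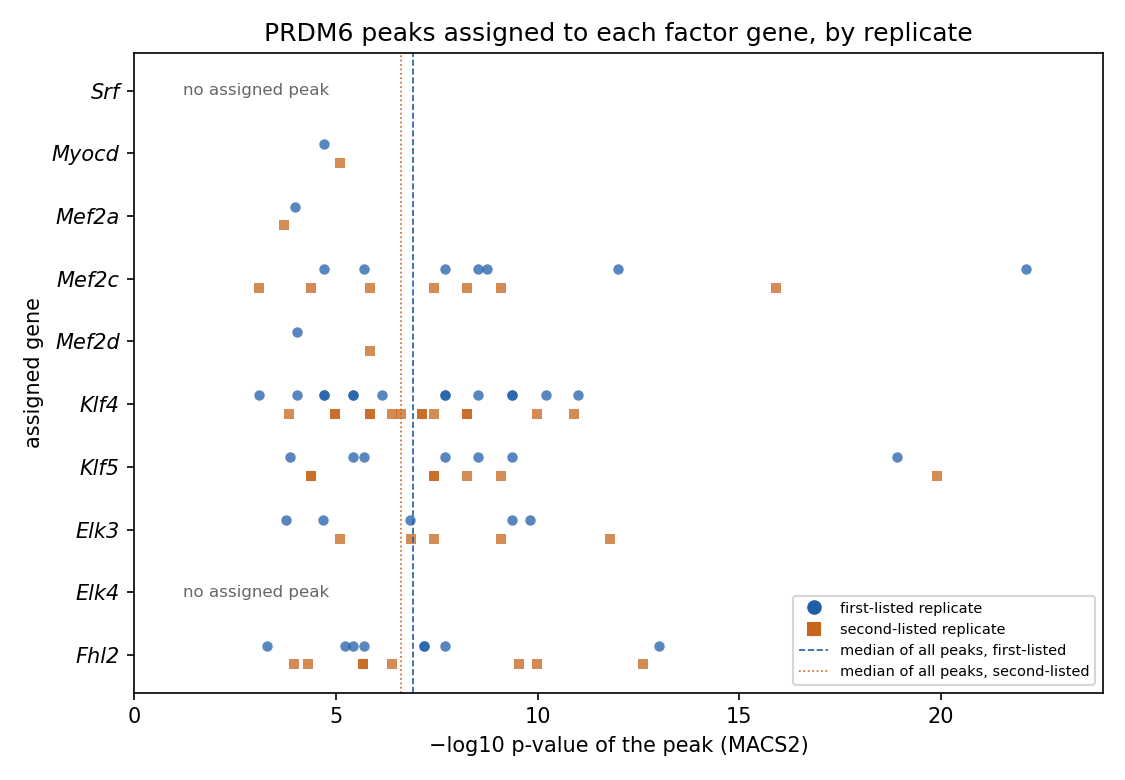
The −log10 p-value of each assigned peak (horizontal axis) in the first-listed replicate (blue circles) and the second-listed replicate (orange squares), by gene; vertical lines are the medians over all 13977 peaks, 6.92 and 6.61. The single peaks of Myocd, Mef2a and Mef2d lie below both lines, and 1 peak each of Klf5 and Mef2c stands far to the right in both replicates.

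**Figure D3:**
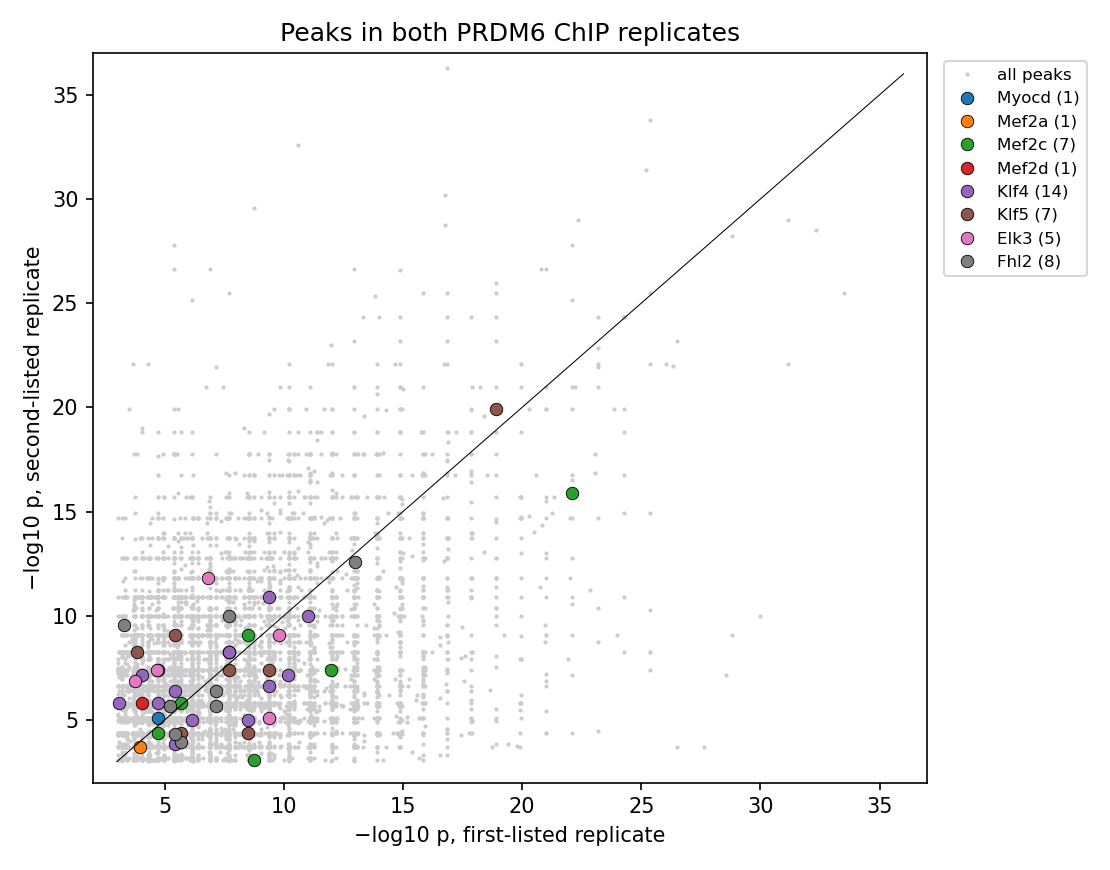
The −log10 p-value of every peak in the first-listed (horizontal axis) against the second-listed replicate (vertical axis), with all 13977 peaks in grey, member peaks coloured by gene and the line of equal values; legend numbers are peaks per gene. The Klf5 peak at 18.9 and 19.9 and the Mef2c peak at 22.1 and 15.9 lie apart from the other 42 member peaks.

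The sequences around the summits are shown for the Mef2c peak, the strongest Fhl2 peak and the single Myocd peak, from the GRCm38 (mm10) reference of RefSeq, on the plus strand. Each reaches 100 bases to either side of the summit, and none overlaps a UTR. Capitals mark a match to one of 6 motifs or, in the Mef2c peak, the uninterrupted TG repeats of at least 20 bases.
Mef2c intron peak, chr13:83603755-83603955, capitals TG repeats: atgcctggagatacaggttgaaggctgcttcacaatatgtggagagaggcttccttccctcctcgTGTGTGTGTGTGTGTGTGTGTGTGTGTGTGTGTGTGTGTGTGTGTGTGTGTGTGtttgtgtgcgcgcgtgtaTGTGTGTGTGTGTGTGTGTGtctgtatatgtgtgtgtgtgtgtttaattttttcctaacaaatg
Fhl2 upstream peak, chr1:43218192-43218392, capitals TEAD motif: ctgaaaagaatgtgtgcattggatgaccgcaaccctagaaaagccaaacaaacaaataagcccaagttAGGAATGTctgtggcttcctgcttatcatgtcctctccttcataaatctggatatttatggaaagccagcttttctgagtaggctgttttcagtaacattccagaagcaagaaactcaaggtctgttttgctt
Myocd peak, chr11:65275421-65275621, no motif around the matched summit: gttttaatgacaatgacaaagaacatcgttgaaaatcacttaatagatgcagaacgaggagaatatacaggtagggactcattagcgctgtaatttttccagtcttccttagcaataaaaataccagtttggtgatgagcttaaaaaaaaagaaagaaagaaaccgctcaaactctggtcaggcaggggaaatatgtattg

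Srf, on chr17:46548329-46556175 on the minus strand, had no peak in its body or within 10 kb of it. The peak nearest to its TSS was 273512 bp away, at chr17:46282421-46282663. It was assigned to Tjap1, had a global IDR of 0.759 and a matched −log10 p of 5.00, and was the sole peak within 500 kb of the Srf start. Of the protein-coding genes, 28.7% had their nearest peak at least as far away, and the median distance was 123 kb, so a stretch of this size without a peak was common in the list. The files give only called peaks, so the level of signal at Srf below the calling limit is not known.

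The Srf promoter is shown because SRF is known to act on its own gene through CArG boxes, and the stretch from 150 to 21 bases before the RefSeq start held both kinds of element discussed here. Written on the gene's strand, its capitals mark the ETS motif CCGGAAG and then a pair of CArG boxes, CCATATAAGG and CCATAAAAGG, the latter ending 53 bases before the start.
Srf promoter, chr17:46556183-46556312, minus strand: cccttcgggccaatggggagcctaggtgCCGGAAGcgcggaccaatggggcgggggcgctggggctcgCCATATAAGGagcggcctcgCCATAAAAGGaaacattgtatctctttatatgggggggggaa
A CArG box was found in 1.47% of the 32851 RefSeq promoters of 250 bases before a start and the ETS motif in 6.91%. No PRDM6 peak lay on this stretch.

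Myocd, on chr11:65176561-65269989 on the minus strand, had 1 assigned peak. It lay 5124 bp upstream of the TSS in intergenic sequence, at chr11:65275113-65275854. Its −log10 p was 4.71 in the first-listed and 5.10 in the second-listed replicate, which corresponds to 11 fragments in each, and its global IDR was 0.759. Both values were below the median of the list, and the sequence around its summit, printed above, held none of the 6 motifs. An AP-1 and a TEAD motif did lie within 100 bp of the summit that the first-listed replicate gave, so the absence depended on the replicate. No peak overlapped the gene body.

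More peaks lay near Myocd than the assignment shows. A further 5 peaks had the Myocd TSS as their nearest coding one but were assigned to Gm12295, a noncoding gene model farther upstream. They lay 30.7, 96.1, 116, 173 and 247 kb upstream of the Myocd TSS, and none reached a global IDR of 0.05. The peak 173 kb upstream, at chr11:65443331-65444477, had the highest matched value of them, with a −log10 p of 7.71 in the first-listed and 11.8 in the second-listed replicate and a global IDR of 0.288. The one 116 kb upstream had 7.59 and 9.98, and the one 30.7 kb upstream had 6.14 and 6.61. All but the 2 at 96.1 and 247 kb were stronger in both replicates than the peak assigned to Myocd itself.

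The peak 173 kb upstream is shown because its summit had both a CArG box, centred 24 bp away, and an AP-1 motif, 63 bp away; these peaks were chosen for naming after their values were seen.
Myocd far upstream peak, chr11:65443696-65443896, capitals AP-1 motif then CArG box: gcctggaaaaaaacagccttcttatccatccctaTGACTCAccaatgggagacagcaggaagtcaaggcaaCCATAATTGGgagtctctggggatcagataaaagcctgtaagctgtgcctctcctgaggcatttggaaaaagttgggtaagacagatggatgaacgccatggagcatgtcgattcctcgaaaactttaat

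**Figure D4:**
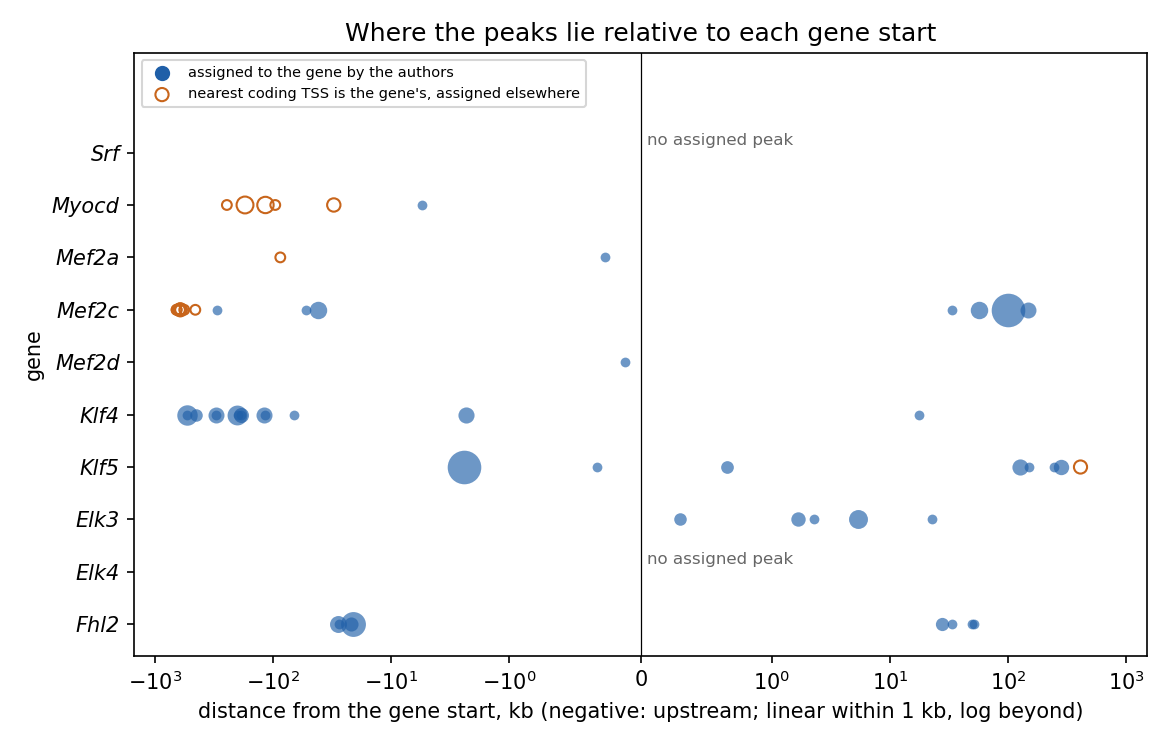
Distance of each peak summit from the start of the gene in kb (horizontal axis, linear within 1 kb and logarithmic beyond, negative is upstream), by gene; filled points are assigned peaks, open points are peaks whose nearest coding TSS is the member's but which were assigned to another gene (their nearest edge is plotted), and larger points have a higher IDR score. Elk3 peaks lie inside the gene, most Klf4 peaks far upstream, and the open points include 5 upstream of Myocd.

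The 3 MEF2 genes among the members differed in the number and strength of their peaks. Mef2b, one of the other pathway genes described below, had no peak. Mef2a and Mef2d had a single weak promoter peak each, both with a global IDR of 0.759, and Mef2c had 7 peaks over its long intergenic surroundings and body. The Mef2a peak, at chr7:67372917-67373349, lay 59 bp upstream of the TSS, with a −log10 p of 3.99 in the first-listed and 3.71 in the second-listed replicate. The Mef2d peak, at chr3:88141985-88142326, lay 46 bp upstream, with 4.04 and 5.84, or 10 and 12 fragments. A stronger peak inside the Mef2a body, at chr7:67243958-67244329 and with 13 and 8.25, was 20349 bp downstream of the Lysmd4 TSS and assigned to that gene.

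Mef2c, required for the early outflow tract and a partner of myocardin in heart muscle, had the second of the 2 most reproducible peaks. That peak, at chr13:83603632-83605017, lay in intron 4, its summit 99.8 kb into the gene. Its −log10 p was 22.1 in the first-listed replicate, or 30 fragments, and 15.9 in the second-listed, with a global IDR of 0.00372, and it ranked 92 in the list by matched value. Its summit window held an uninterrupted TG repeat of 54 bp, as printed above, and 67.2% of the window was repeat-masked in the reference. A TG or CA repeat of at least 20 bp lay within 100 bp of the summit in this 1 member peak, 2.27%, and in 3.11% of all peaks. How reads placed in such a repeat bear on the height was not tested.

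The other 6 Mef2c peaks had −log10 p-values from 4.71 to 12 in the first-listed and from 3.09 to 9.10 in the second-listed replicate. The peak annotated as its promoter, at chr13:83651911-83652618 with 7.71 and 8.25, lay 270 bp before the start of a short internal transcript, 148 kb into the gene and 76234 bp from the nearest coding TSS. The peak closest to a coding TSS of the gene, at chr13:83537218-83537525 with 4.71 and 4.39, was 12352 bp from it. No peak thus lay at a coding start of the gene. A further 7 peaks, 457 to 658 kb upstream and nearest to Mef2c among coding genes, were assigned to the microRNA gene Mir3961.

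Klf5, which promotes proliferation of SMCs, had the strongest peak of the set by the matched value, while in the first-listed replicate alone the Mef2c peak was higher. It lay at chr14:99295588-99296771, 1920 bp upstream of the TSS. Its −log10 p was 18.9 in the first-listed and 19.9 in the second-listed replicate, which corresponds to 27 fragments in both, its global IDR was 0.00224 and it ranked 37 in the list.

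The promoter of Klf5 carried further signal, with 3 peaks in 4.77 kb. A peak at chr14:99298177-99298565, 126 bp upstream of the TSS, had −log10 p-values of 3.85 and 8.25. A broad peak over the TSS, at chr14:99298732-99300355, had 5.42 and 9.10, or 12 and 16 fragments, and overlapped exon 1. Both were higher in the second-listed replicate, and neither came near the reproducibility of the upstream peak. The other 4 Klf5 peaks lay 124 to 281 kb downstream of the assigned TSS, with values from 4.39 to 9.37 over both replicates.

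Klf4, which represses contractile genes in SMCs under phenotypic change, had the most peaks, and 11 of its 14 lay more than 100 kb upstream, up to 535 kb away. Among these 11 the −log10 p ran from 4.04 to 11 with a median of 7.71 in the first-listed replicate, and from 3.83 to 10.9 with a median of 7.14 in the second-listed. The strongest of them by the matched value lay at the far end, at chr4:56066123-56066677, 534 kb upstream, with 11 and 9.98 and a global IDR of 0.148. The peak nearest the TSS, at chr4:55533094-55535170, began 628 bp upstream and was the widest member peak, at 2077 bp, with 7.71 and 8.25, or 15 fragments in each. The median of the distal peaks thus equalled the value of the promoter peak in the first-listed replicate and was lower in the other, and none of the 14 had a global IDR of 0.05 or less.

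The Klf4 peaks came in groups, of which the largest held 4 peaks in 18.1 kb, about 186 to 203 kb upstream. The peak of that group with the highest matched value, with 9.37 and 10.9 or 17 and 18 fragments, had an AP-1 motif centred 10 bp from its summit, the closest AP-1 match among the member peaks. It is shown for that reason, and was chosen after its values were seen.
Klf4 far upstream peak, chr4:55735653-55735853, capitals AP-1 motif: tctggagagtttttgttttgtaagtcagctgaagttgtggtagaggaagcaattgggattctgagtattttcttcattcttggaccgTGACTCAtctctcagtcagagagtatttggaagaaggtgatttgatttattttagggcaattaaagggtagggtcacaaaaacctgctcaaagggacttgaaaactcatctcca

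Of the ternary complex factor genes among the members, Elk3 had 5 peaks and Elk4 none. Elk1, one of the other pathway genes described below, had none either. The Elk3 peaks all lay inside the gene, chr10:93247414-93311135 on the minus strand, within 22.4 kb at its 5′ end. The strongest by the matched value, in intron 1 at chr10:93305503-93306720, had −log10 p-values of 9.81 and 9.10 and a global IDR of 0.200. In the promoter region, the peak at chr10:93309269-93309947 had 6.84 and 11.8, the highest value at Elk3 in the second-listed replicate. The one at chr10:93310659-93310924, over exon 1, had 9.37 and 5.10, or 17 and 11 fragments, and the one at chr10:93308679-93309084 had 4.68 and 7.42. These 3 thus differed between the replicates in which one was higher. The last, farther into intron 1 at chr10:93288538-93288923, had 3.75 and 6.86.

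At Elk4, chr1:132007607-132032612, the nearest peak to a TSS was 64035 bp away, at chr1:131942597-131943572. It was assigned to Slc45a3 and had a matched −log10 p of 6.61 and a global IDR of 0.380. Of the protein-coding genes, 66.2% were as far from a peak or farther, and 12 peaks lay within 500 kb of the Elk4 start. Elk4 was thus a gene without a peak in a region that had peaks, while the surroundings of Srf had 1.

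Fhl2 had 8 peaks in 2 groups of 4, one inside the gene over 24.6 kb and one upstream over 8.43 kb. The strongest lay in the upstream group at chr1:43217616-43218652, 20632 bp from the TSS. Its −log10 p was 13 in the first-listed replicate, or 21 fragments, and 12.6 in the second-listed, and its global IDR of 0.0525 was just outside the limit of 0.05. A TEAD motif, AGGAATGT, was centred 28 bp from its summit, as printed above. The other 7 Fhl2 peaks had values from 3.30 to 9.98 over both replicates.

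The Fhl2 promoter peak, at chr1:43163529-43164094, overlapped exon 1 of the main coding transcript. It was weak, with −log10 p-values of 5.23 and 5.67 and a global IDR of 0.759. The sequence just before that start is shown because it held a CArG box, CCTTATATGG, 31 to 22 bases before the RefSeq start. The box was inside the peak but 116 bp from the matched summit. It was 91 bp from the summit of the first-listed and 322 bp from that of the second-listed replicate. Whether it was counted near the summit thus depended on the replicate. Another Fhl2 promoter, at chr1:43196762-43197011, also held a CArG box and a MEF2 site, and no peak overlapped it.
Fhl2 promoter, chr1:43163962-43164091, minus strand, capitals CArG box: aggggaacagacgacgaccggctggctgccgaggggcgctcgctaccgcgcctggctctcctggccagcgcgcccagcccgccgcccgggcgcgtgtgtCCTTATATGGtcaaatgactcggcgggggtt

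By position, 11 of the 44 member peaks were annotated to promoters (25%, interval 14.6 to 39.4), against 21.3% of all peaks, and every member with a peak other than Myocd had one. Introns held 10 (22.7%, interval 12.8 to 37.0), against 35.9% of all peaks, and distal intergenic sequence 22 (50%, interval 35.8 to 64.2), against 37.2%. Klf4 supplied 11 of these 22, and without it the share was 11 of 30 (36.7%, interval 21.9 to 54.5). Of the 11 promoter peaks, 9 were higher in the second-listed replicate, which was the case for 53.2% of all promoter peaks, and 5 had the lowest IDR score. The upstream Klf5 peak was the 1 promoter peak with a global IDR of 0.05 or less. Their median matched −log10 p of 5.23 was close to the 5.42 of all promoter peaks.

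More than 100 kb from the assigned TSS lay 16 of the 44 peaks (36.4%, interval 23.8 to 51.1), against 19.3% of all peaks. This difference rested on Klf4, since without it the share was 5 of 30 (16.7%, interval 7.34 to 33.6). All 44 peaks had the assigned member as the gene with the nearest coding TSS, while this held for 91.9% of the 11373 peaks assigned to a protein-coding gene.

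The motifs within 100 bp of the summit, searched on both strands, were AP-1 TGAGTCA, TEAD AGGAATGC, AGGAATGT, GGGAATGC or GGGAATGT, ETS CCGGAAG, KLF GGGNGTGG, the CArG box and the MEF2 site. At least 1 of them was found in 13 of the 44 member peaks (29.5%, interval 18.2 to 44.2), against 31.0% of all peaks, and no pair of matches overlapped. For the sites of the factors studied here the counts were 1 CArG box (2.27% against 1.41%), 2 MEF2 sites (4.55% against 3.61%), 1 ETS motif (2.27% against 1.07%) and 3 KLF motifs (6.82% against 7.18%). The MEF2 sites were at Klf5 and Fhl2, the ETS motif at Mef2c, and the KLF motifs at Klf4 and Klf5. AP-1 and TEAD motifs were found in 3 peaks each (6.82%, interval 2.35 to 18.2), against 14.3% and 7.45% of all peaks, and in 5 each around the summit of the first-listed replicate (11.4%, interval 4.95 to 24), against 13.3% and 7.16%. In this window the interval of each motif held the share of all peaks. Within 250 bp this was not so for the ETS motif, found in 4 of the 44 peaks (9.09%, interval 3.59 to 21.2), against 2.38% of all peaks, and these 4 peaks lay at Klf4 and Mef2c only. A match in sequence is not a measured binding site.

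The rest of the pathway was described by 2 further lists. Of 34 other genes of the SRF pathway, which were cofactors and partners with a few signalling and actin genes, 21 had a peak (61.8%, interval 45.0 to 76.1), against 20.1% of protein-coding genes, and 0 had one that reached a global IDR of 0.05, against 1.64%. Named after the values were seen, Mkl1, which encodes MRTF-A, had 12 peaks with a matched −log10 p of at most 8.25, and Mkl2, which encodes MRTF-B, had 3 with at most 9.10. Of 20 genes with known SRF sites, Srf among them, 6 had a peak (30%, interval 14.5 to 51.9), against 20.1% of protein-coding genes, a share inside the interval. Of these, 1 gene (5% of the list, against 1.64%) reached a global IDR of 0.05. It was Cald1, which encodes the actin-binding protein caldesmon, with 12 peaks and a highest matched value of 24.3. Of the other genes with a peak in this list, Acta2, the smooth muscle actin gene, had 3 with a matched −log10 p of at most 7.42. Vcl had 8, Cyr61 7, Tpm1 5 and Mylk 1, while Actg2, Tagln, Myh11, Cnn1, Lmod1, Smtn and Des, all in the list, had none. These genes too were named after the values were seen.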

How the data were processed

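ChIP-seq peaks of 4 libraries were analysed, 2 of the PRDM6 ChIP and 2 of the Input group. Per the labels and the study's methods, the authors fixed chromatin, digested it with micrococcal nuclease and sonicated it, aligned reads to mm10 with BWA (mapping quality of at least 13), called peaks in each immunoprecipitation against its own input with MACS2 (p-value limit 0.001), matched both peak sets by IDR and annotated the result. Versions and the annotation tool are not given in the sources used here. The deposited −log10 p-values are those of MACS2, 1 per replicate and the smaller for the matched peak, and the deposited score is a scaled IDR, at most 1000, where 540 stands for a global IDR of 0.05, beside −log10 IDR values. The annotation's q-value column repeated, in 13977 of 13977 rows, the −log10 p-value given for the replicate listed second. The list orders the replicates without naming their samples. Local background estimates lie behind the p-values without a readable height, and matching kept only peaks called in both replicates.

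Member peaks were taken by gene symbol. The members and gene lists were chosen with earlier results of these data known. All members are named. Members with over 5 peaks are given by their strongest and nearest peak and any past the IDR limit of 0.05, the rest by ranges. Of the further lists only genes with such a peak are named, besides Elk1, Mef2b and others where stated. No test was run, since the files hold 1 matched list. Shares carry 95% Wilson intervals. Heights were read within 0.0002 of a Poisson step, and the height and motif searches were tested on simulated data. Genes came from GENCODE M21 (basic) and sequence from RefSeq GRCm38, both mm10. Software was pysam 0.24.0, SciPy 1.17.1, pandas 2.3.3, NumPy 2.4.6 and matplotlib 3.10.9 under Python 3.11.15. Alternatives were stricter IDR limits, the stronger part of the list, other gene assignments and distances, each replicate alone and other motif windows. The summit sequences of some peaks are not reported here.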

Additional observations from a re-analysis of the deposited data

How the results depend on the processing

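The 44 member peaks fell to 2 at a global IDR of 0.05 or 0.01, to 20 in the stronger 50% of the list, to 28 within 100 kb and 16 within 10 kb of the assigned TSS, and to 21 in gene bodies with 10 kb on either side; by nearest coding TSS there were 58. Members with a peak fell from 8 to 2 at either IDR limit and to 5 in the stronger 50%, and stayed at 8 under the other alternatives. The median matched −log10 p of 5.32 was 5.42 within 100 kb, and with each replicate alone the medians were 7.0 and 7.01, higher because the matched value is the smaller of both. Promoter peaks numbered 9 within 1 kb of a TSS and 3 over it, against 11.

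Motif counts were small and moved with the window and the summit used. AP-1 rose from 3 peaks to 12 within 250 bp (27.3% against 30.7% of all peaks) and to 18 in the whole peak (40.9% against 34.3%), the latter chosen after seeing the data. Around the summits of the first- and the second-listed replicate AP-1 was found in 5 and 4 peaks (11.4% and 9.09%, against 13.3% and 12.3% of all peaks) and TEAD in 5 and 2 (11.4% and 4.55%, against 7.16% and 6.83%). Within 250 bp TEAD was found in 9 (20.5% against 15.7%), KLF in 7 (15.9% against 15%), MEF2 in 5 (11.4% against 10.3%) and CArG in 3 (6.82% against 3.48%). The CArG count of 1 was 0 within 50 bp (against 0.687%) and 2 and 1 around the replicates' summits (4.55% and 2.27%, against 1.22% and 1.27%), where MEF2 had 0 and 1 (0% and 2.27%, against 3.66% and 2.86%). The ETS count of 1 was 4 within 250 bp (9.09%, interval 3.59 to 21.2, against 2.38%), 5 in the whole peak (11.4%, interval 4.95 to 24, against 3.23%), 0 within 50 bp (against 0.594%) and 0 at the summit of the first-listed replicate (against 1.22%). No paired analysis was possible because no result comes from a test between groups and the list names replicates only by order. Depth could not be read from the files, so a member without a peak may have signal under the calling limit.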
